A study of Mus musculus with 11 samples.

Results

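The genes described here are 10 feedback inhibitors of mitogen-activated protein (MAP) kinase signalling, 6 of the dual specificity phosphatase family (Dusp1, Dusp2, Dusp4, Dusp5, Dusp6 and Dusp10), 2 Sprouty genes (Spry1 and Spry2) and 2 Spred genes (Spred1 and Spred2). They were listed by symbol among the 24064 genes of the gated files, and all 10 were found there and among the 23418 gene names of the unfractionated files. The transcript of each gene was chosen by its mean over the 7 gated libraries, which mattered for Spred1 alone, whose transcripts had means of 0.410 and 0.140 RPKM. RPKM is a read count scaled to transcript length in kilobases and to library depth. The list was drawn up with the comparison below already known, so its counts describe these genes and say nothing about the family.

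All samples were haematopoietic stem cells (HSCs) of wild-type C57BL/6 mouse livers at postnatal day 0, sorted for Sca1, cKit and CD150 on their surface and for lack of CD48 and of lineage markers. The 11 libraries fell into FSC-A High HSCs (4 libraries), FSC-A Low HSCs (3 libraries) and HSCs with no scatter gate in their labels (4 libraries, here unfractionated). FSC-A is the forward scatter area of flow cytometry, commonly read as cell size. Each library was made from 100 to 200 cells with Smart-seq2, which amplifies whole cDNAs from small inputs; no label says that the replicates of a group were different animals, so every p-value here rests on a spread between libraries that may be technical.

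MAP kinase cascades carry signals from receptors such as Kit through Ras and Raf to the Erk kinases, and stress signals to the p38 and Jnk kinases. The cascades switch on transcription of their own inhibitors. Dual specificity phosphatases remove the activating phosphates from the kinases themselves, whereas Sprouty and Spred proteins act further up, on Ras and Raf. In blood stem cells Kit is a major input to Erk. The messenger RNAs of several of these inhibitors are short-lived and commonly rise soon after a stimulus.

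The gated libraries corresponded to an estimated 65.7 to 85.2 M reads (M stands for 1000000) in FSC-A High and 69.4 to 98.2 M in FSC-A Low, and the unfractionated libraries held 21307178 to 30889443 reads. Unfractionated replicate 4 stood apart: across 10997 genes its Spearman correlation with the other 3 was 0.833 to 0.841, against 0.914 to 0.942 among those 3, and reads were found for 11384 genes in it against 12909 to 13368. The markers Kit, Slamf1, Procr and Ly6a were present in every library. The marker lists of other cell types were mixed in the gated libraries: Slc4a1 (erythroid), Gp6 (megakaryocyte), Ctsg (myeloid), Cd3e, Rag1 and Ms4a1 (lymphoid) and Fcer1a (mast and basophil) were at 0, while Lyz2 had 162 to 265 RPKM, Prtn3 88.3 to 135 RPKM, Gp9 25.6 to 75.4 RPKM and Cd79b 17.8 to 56.1 RPKM. The summed erythroid list, most of it Hbb-bt with 12.1 to 25.8 RPKM of Epor, stood at 110 to 237 RPKM in FSC-A High and 69.0 to 102 RPKM in FSC-A Low. The megakaryocyte list, most of it Gp9 and Pf4, stood at 72.3 to 105 and 55.6 to 68.3 RPKM. The myeloid list, most of it Lyz2 and Prtn3, stood at 280 to 406 and 263 to 265 RPKM. The HSC sort marker list ran the other way, at 180 to 275 RPKM in FSC-A High and 374 to 501 RPKM in FSC-A Low, as did the endothelial and stromal list, at 3.13 to 8.23 and 9.72 to 16.7 RPKM, most of it Pecam1. Each of these 5 lists separated the groups, at a two-sided exact permutation p of 0.0571, the smallest that 4 against 3 libraries allow, and 0.0914 after adjustment over 8 lists. The lymphoid (p = 0.400), mast and basophil (p = 0.171) and hepatocyte (p = 0.629) lists overlapped between the groups in the same exact test. Their part in the differences below was not tested.

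Dusp2, Dusp5 and Dusp6 fell and Spry2 rose in FSC-A High HSCs. Dusp1, the gene with the second highest level, did not pass the test, with an interval that leaves room for a log2 difference of -0.55 to 0.16. Of the 10 genes, 8 reached 1 RPKM in at least 3 gated libraries and were tested: 3 were lower, 1 was higher and 4 did not pass. By the same rule, limma on log2(RPKM + 1) with a Benjamini-Hochberg adjusted p below 0.05, 11.7% of the 10619 genes tested were lower and 15.6% higher, 27.3% in all. Since the 10 genes were picked with this comparison known, nothing is read from their share. Over all genes this was 1245 lower and 1657 higher; with libraries scaled to their total of gene RPKM values it was 2285 lower and 980 higher. As these are bulk samples, fewer cells with a transcript and less of it per cell cannot be told apart. The median log2 difference was -0.24 over the 8 genes and -0.04 over all genes tested. Dusp10 passed the filter with 1 FSC-A High and 2 FSC-A Low libraries and Dusp4 with 3 and 2; the other 6 tested genes were at or above 1 RPKM in at least 6 of the 7 libraries. All log2 differences are between values of log2(RPKM + 1) and so understate the changes of low genes.

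**Figure D1:**
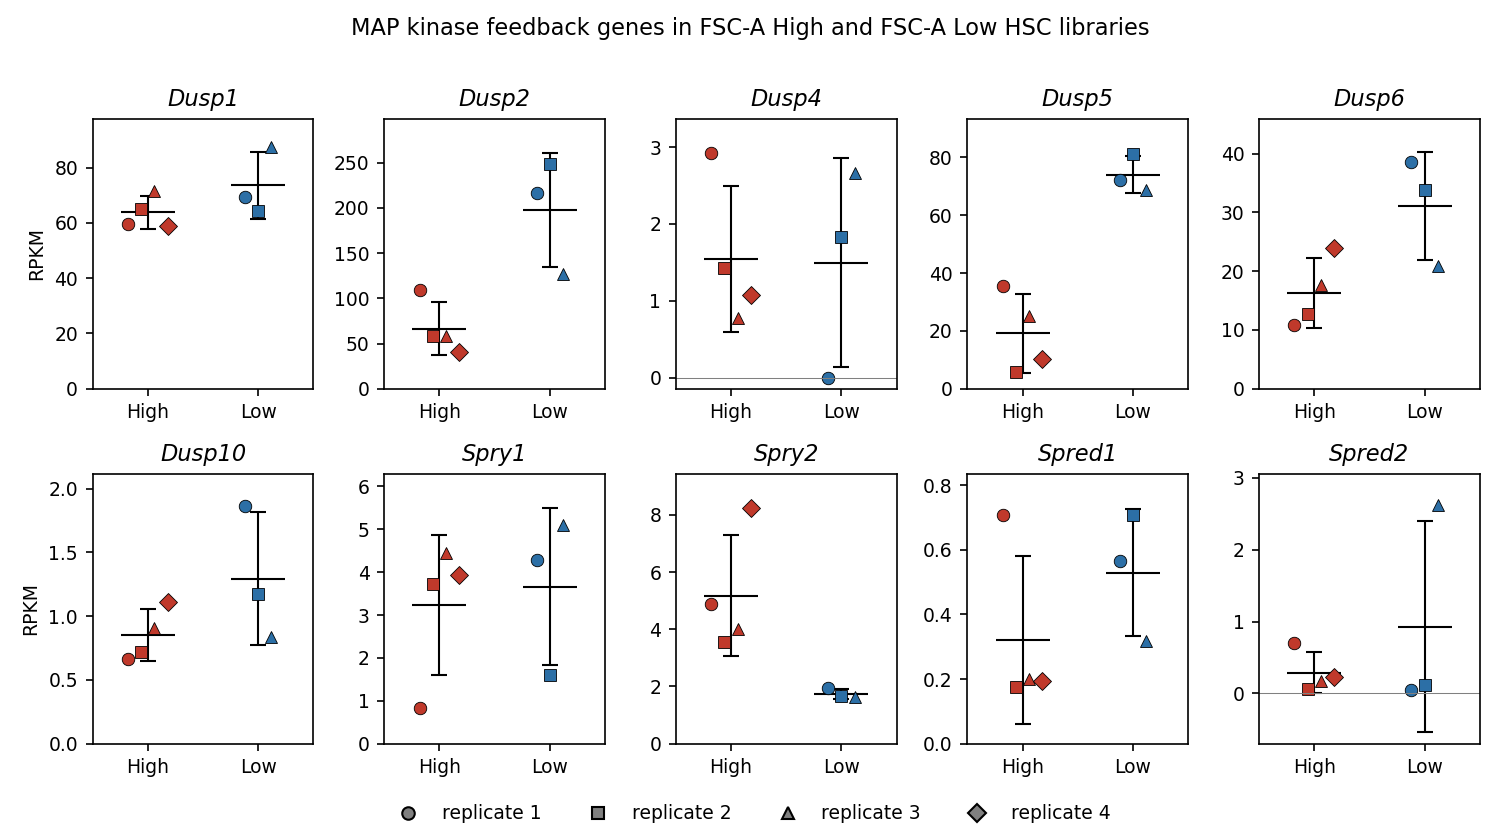
RPKM (vertical axes, 1 scale per gene) of the 10 genes in FSC-A High and FSC-A Low HSC libraries; each point is a library, with its replicate number by shape, the horizontal line is the mean and the error bar 1 SD (n = 4 and 3). Dusp2, Dusp5 and Spry2 have no overlap between the groups, while the points of the other 7 genes overlap.

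The promoter regions of the genes that passed, and of Dusp1, are printed here because these genes hold the main contrast: Dusp2, Dusp5, Dusp6 and Spry2 passed the test and the abundant Dusp1 did not. Each runs from 250 bases before to 50 after the gene's start, from RefSeq on GRCm38.p6 (the assembly of mm10), 5′ to 3′ on the gene's strand; positions are counted from the first base of the gene, which is 1. Promoter sequences were matched by symbol for 9 of the 10 genes; Dusp4 was the other. Capitals mark matches on either strand to TGACGTCA (the cyclic AMP response element), its shorter core TGACG and the AP-1 site TGANTCA. They also mark the CArG box (a site of serum response factor), the Ets site CCGGAA and the TATA box, searched as TATAAA. The shorter core lies within the full cyclic AMP response element, so each full match also counts as a short one.
Dusp2, chr2:127335909-127336208, plus strand: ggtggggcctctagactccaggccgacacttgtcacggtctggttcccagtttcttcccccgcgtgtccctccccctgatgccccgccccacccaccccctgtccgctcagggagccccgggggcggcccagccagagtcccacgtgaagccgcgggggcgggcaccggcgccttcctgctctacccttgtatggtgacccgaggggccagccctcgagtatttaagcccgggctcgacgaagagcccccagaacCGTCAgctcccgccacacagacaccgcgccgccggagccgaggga
Dusp5, chr19:53528895-53529194, plus strand: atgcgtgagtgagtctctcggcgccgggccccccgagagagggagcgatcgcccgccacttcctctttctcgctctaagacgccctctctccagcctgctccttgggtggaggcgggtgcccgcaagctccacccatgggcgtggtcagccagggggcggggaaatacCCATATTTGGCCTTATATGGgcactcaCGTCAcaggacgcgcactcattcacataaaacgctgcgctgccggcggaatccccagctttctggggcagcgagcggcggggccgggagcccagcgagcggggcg
Dusp6, chr10:99262981-99263280, plus strand: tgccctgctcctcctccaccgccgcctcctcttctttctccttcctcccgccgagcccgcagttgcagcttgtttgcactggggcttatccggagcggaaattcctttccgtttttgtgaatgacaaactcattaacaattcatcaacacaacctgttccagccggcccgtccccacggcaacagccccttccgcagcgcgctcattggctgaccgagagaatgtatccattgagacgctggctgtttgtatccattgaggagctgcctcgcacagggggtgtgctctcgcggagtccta
Dusp1, chr17:26508423-26508722, minus strand: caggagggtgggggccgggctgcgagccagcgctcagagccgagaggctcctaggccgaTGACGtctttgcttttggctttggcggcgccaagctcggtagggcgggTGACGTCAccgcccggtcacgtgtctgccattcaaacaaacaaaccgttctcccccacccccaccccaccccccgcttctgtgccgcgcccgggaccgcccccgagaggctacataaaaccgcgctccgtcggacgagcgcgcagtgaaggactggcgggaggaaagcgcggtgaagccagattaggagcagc
Spry2, chr14:105896770-105897069, minus strand: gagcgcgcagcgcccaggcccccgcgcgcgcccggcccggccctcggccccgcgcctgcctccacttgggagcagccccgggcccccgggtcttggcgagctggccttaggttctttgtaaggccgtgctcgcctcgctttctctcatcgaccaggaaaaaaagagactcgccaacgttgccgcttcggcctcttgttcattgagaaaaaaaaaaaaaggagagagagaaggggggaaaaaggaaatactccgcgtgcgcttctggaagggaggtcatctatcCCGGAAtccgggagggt

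Dusp5 held 2 CArG boxes next to each other, starting at -82 and -72 from the gene's start, and a TGACG at -55 on the opposite strand. A CArG box was found in 1.63% of the 32851 promoter windows of this length, and in no other of the 9. Dusp1 held TGACGTCA at -143, found in 1.79% of all windows, and another TGACG at -191. Dusp2 held TGACG at 6, and Spred2 held it at -51; that core was in 20.8% of all windows. Spry2 held CCGGAA at 34, a match found in 14.9% of windows. TGANTCA, in 7.81% of windows, and TATAAA, in 13.6%, were in none of the 9, and the Dusp6, Dusp10, Spry1 and Spred1 windows held none of the 6 motifs. These are matches of letters in a short window.

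Dusp2 was the most abundant of the 10 genes over the gated libraries. It encodes a nuclear phosphatase, known as PAC-1, that is induced in activated blood cells (its transcript spans bases 127336159 to 127338377 of chromosome 2 on mm10). It had 109, 58.6, 58.4 and 40.6 RPKM in FSC-A High replicates 1 to 4, against 217, 248 and 127 RPKM in FSC-A Low replicates 1 to 3. Every FSC-A High library was below every FSC-A Low library, with FSC-A High replicate 1 and FSC-A Low replicate 3 nearest to each other. The means were 66.7 ± 29.5 RPKM (SD, n = 4) and 198 ± 63.0 RPKM (SD, n = 3), and the log2 difference was -1.59 (95% interval -2.23 to -0.95, limma adjusted p = 0.00174). Dusp2 and Dusp5 were lower, and Spry2 higher, with no overlap between the groups, 3 of the 8 tested genes; among all genes tested 16.0% were lower and 18.9% higher in this way, 34.9% in all, and nothing is read from the share of the 8 here either.

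Dusp5 had the largest difference of the 8 tested genes. It encodes a nuclear phosphatase selective for Erk (chromosome 19, 53529145 to 53541809). It had 35.6, 5.69, 25.2 and 10.1 RPKM in FSC-A High replicates 1 to 4, against 72.1, 81.1 and 68.9 RPKM in FSC-A Low. The FSC-A Low libraries lay close together, within 1.18-fold, while those of FSC-A High spread over 6.25-fold without reaching them. The means were 19.2 ± 13.8 RPKM (SD, n = 4) and 74.0 ± 6.35 RPKM (SD, n = 3), a log2 difference of -2.20 (95% interval -3.17 to -1.22, limma adjusted p = 0.00328). Without a filter on low values it no longer passed (limma adjusted p = 0.0558 over the larger set of genes).

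Dusp6, the cytoplasmic phosphatase selective for Erk and a common readout of Erk activity, fell by less (chromosome 10, 99263231 to 99267489). It had 10.9, 12.6, 17.7 and 24.0 RPKM in FSC-A High, against 38.6, 33.8 and 20.8 RPKM in FSC-A Low. The groups overlapped, since FSC-A High replicate 4 was above FSC-A Low replicate 3. The means were 16.3 ± 5.90 RPKM (SD, n = 4) and 31.1 ± 9.19 RPKM (SD, n = 3), a log2 difference of -0.91 (95% interval -1.54 to -0.27, limma adjusted p = 0.0364). The call was close to the threshold: it held under 11 of 20 alternatives, and leaving out any of FSC-A High replicates 1 to 3 or FSC-A Low replicates 1 and 2 ended it (limma adjusted p = 0.0550 to 0.134).

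Dusp1, an immediate early phosphatase that acts on p38, Jnk and Erk, differed by less than the spread between libraries. It had 59.7, 65.2, 71.7 and 58.7 RPKM in FSC-A High, against 69.4, 64.2 and 87.4 RPKM in FSC-A Low. The groups overlapped and every library lay within 1.5-fold of every other. The log2 difference was -0.20 (95% interval -0.55 to 0.16, limma adjusted p = 0.413). With libraries scaled to their total of gene RPKM values it passed as lower, at -0.50 (limma adjusted p = 0.0323), where the median of all genes tested was -0.31, and with the expression level trend removed at -0.48 (limma adjusted p = 0.0478).

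Dusp4 and Dusp10 were low in all gated libraries. Dusp4, a nuclear phosphatase of Erk and Jnk, had 2.92, 1.42, 0.778 and 1.08 RPKM in FSC-A High, against 0, 1.83 and 2.66 RPKM in FSC-A Low, where replicate 1 was listed at 0. Its log2 difference was 0.16 (95% interval -0.83 to 1.15, limma adjusted p = 0.831), and its sign turned when FSC-A High replicate 1 or FSC-A Low replicate 1 was left out. Dusp10, which prefers p38 and Jnk, had 0.663, 0.715, 0.908 and 1.11 RPKM in FSC-A High, against 1.86, 1.18 and 0.839 RPKM in FSC-A Low. The groups overlapped, and the log2 difference was -0.29 (95% interval -0.98 to 0.39, limma adjusted p = 0.531).

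Ratios within a library show the balance of the phosphatases; they were not tested. Dusp2 was 48.3, 38.6, 31.8 and 27.4% of the summed RPKM of the 10 genes in FSC-A High replicates 1 to 4, against 53.5, 57.1 and 40.1% in FSC-A Low. The Dusp2 to Dusp1 ratio, which no scaling of a library can change, was 1.83, 0.899, 0.814 and 0.690 in FSC-A High, against 3.13, 3.87 and 1.45 in FSC-A Low. Dusp2 was thus above Dusp1 in every FSC-A Low library and, of the FSC-A High libraries, in replicate 1 only, though FSC-A High replicate 1 overlapped with FSC-A Low replicate 3 in this ratio. The Dusp5 to Dusp6 ratio was 3.28, 0.450, 1.42 and 0.422 in FSC-A High, against 1.87, 2.40 and 3.31 in FSC-A Low, so that the groups overlapped through FSC-A High replicate 1. The Dusp5 to Dusp2 ratio, at 0.326, 0.0971, 0.432 and 0.250 in FSC-A High against 0.332, 0.327 and 0.542 in FSC-A Low, overlapped as well.

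FSC-A High replicate 1 and FSC-A High replicate 4 were at opposite ends for several of the genes. Replicate 1 had the highest Dusp2, Dusp4, Dusp5, Spred1 and Spred2 of the 4 FSC-A High libraries and the lowest Dusp6, Dusp10 and Spry1. Replicate 4 had the highest Dusp6, Dusp10 and Spry2 and the lowest Dusp1 and Dusp2. Without FSC-A High replicate 1 the log2 differences were -1.86 for Dusp2 (limma adjusted p = 2.54e-04) and -2.58 for Dusp5 (5.94e-04). Without FSC-A High replicate 4 they were -1.39 (0.00563) and -2.01 (0.0127).

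**Figure D2:**
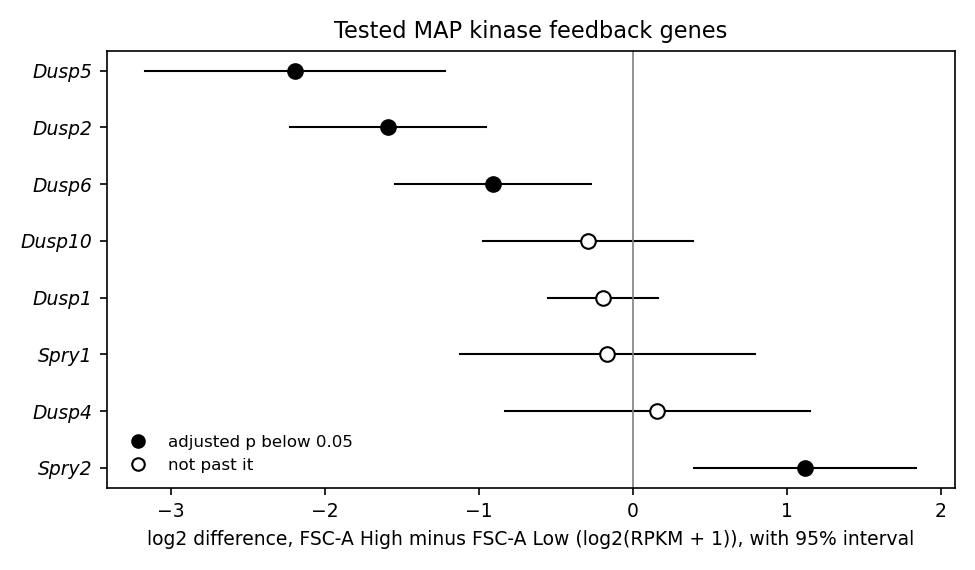
Log2 difference, FSC-A High minus FSC-A Low on log2(RPKM + 1), of the 8 tested genes (horizontal axis), with limma's 95% interval as a line; filled points passed an adjusted p of 0.05. Dusp5, Dusp2 and Dusp6 lie below 0 and Spry2 above it, and the intervals of the other 4 include 0.

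Of the Sprouty genes Spry2 passed the test and Spry1 did not; the difference between them was not tested. Spry2, an inhibitor of growth factor signalling to Ras, was higher in FSC-A High (chromosome 14, 105891947 to 105896819). It had 4.89, 3.56, 4.02 and 8.25 RPKM in FSC-A High, against 1.94, 1.65 and 1.62 RPKM in FSC-A Low. All 4 FSC-A High libraries were above all 3 FSC-A Low libraries, and replicate 4 was the highest. The means were 5.18 ± 2.12 RPKM (SD, n = 4) and 1.74 ± 0.173 RPKM (SD, n = 3), a log2 difference of 1.12 (95% interval 0.40 to 1.84, limma adjusted p = 0.0247). The level was low and the call near the threshold: it held under 12 of 19 alternatives and ended with FSC-A High replicate 4, FSC-A Low replicate 2 or FSC-A Low replicate 3 left out (limma adjusted p = 0.0556 to 0.0593), with libraries scaled to their totals (0.0614), or when a trend over length and GC content was removed (0.0516). Spry1 had 0.826, 3.73, 4.46 and 3.94 RPKM in FSC-A High, against 4.27, 1.60 and 5.11 RPKM in FSC-A Low. FSC-A High replicate 1 and FSC-A Low replicate 2 were the low libraries, the groups overlapped, and the log2 difference was -0.16 (95% interval -1.12 to 0.79, limma adjusted p = 0.819). The Spry2 to Spry1 ratio was 5.92, 0.955, 0.903 and 2.09 in FSC-A High, against 0.453, 1.03 and 0.318 in FSC-A Low, with an overlap through FSC-A Low replicate 2.

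The Spred genes, whose proteins recruit neurofibromin to the membrane to switch off Ras, did not reach the level for a test. Spred1 had 0.709, 0.176, 0.202 and 0.195 RPKM in FSC-A High, against 0.565, 0.706 and 0.317 RPKM in FSC-A Low. FSC-A High replicate 1 was as high as the highest FSC-A Low library while its other replicates were below all of them. Spred2 had 0.700, 0.0645, 0.166 and 0.225 RPKM in FSC-A High, against 0.0484, 0.110 and 2.62 RPKM in FSC-A Low, where replicate 3 alone was above 1 RPKM. By the estimated depths these values stand for about 85.7 to 417 reads of Spred1 and 9.93 to 519 of Spred2 per library, and for 121 to 375 reads of Dusp10. Dusp2 had about 5591 to 39443. Reads were counted after amplification from 100 to 200 cells, so they are not independent molecules.

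Few of the phosphatases and Sprouty relatives outside the 10 passed the test. Of the other typical MAP kinase phosphatases, 2 of 4 were tested and 1 fell: Dusp16, a Jnk and p38 phosphatase, with a mean of 0.805 ± 0.493 RPKM over the 4 FSC-A High libraries and 3.32 ± 0.590 RPKM over the 3 FSC-A Low libraries (SD; log2 difference -1.29, limma adjusted p = 0.0124). It passed the filter mainly through FSC-A Low, with 1 FSC-A High library at or above 1 RPKM, and no longer passed the test with the length and GC trend removed (-0.91, limma adjusted p = 0.0816) or with the replicate block (-1.13, limma adjusted p = 0.0528). Of the atypical members, 8 of 13 were tested, 1 fell and 7 did not pass: Dusp22 stood at 4.50 ± 1.24 RPKM in FSC-A High and 12.7 ± 4.13 RPKM in FSC-A Low (-1.30, limma adjusted p = 0.00769). Their medians were -0.58 and 0.19. Of Spry3, Spry4 and Spred3, only Spred3 was tested, at 0.329 ± 0.251 RPKM in FSC-A High and 1.43 ± 0.367 RPKM in FSC-A Low (-0.88, limma adjusted p = 0.0565); it passed the filter through FSC-A Low alone. For genes that enter the test through 1 group, as Dusp16 and Spred3 did, nothing is read from the direction. Beside the list counts here and below stand the shares over all genes tested, 11.7% lower and 15.6% higher, with a median of -0.04.

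Upstream, several receptor genes that feed Erk fell in FSC-A High, among them Kit and Tek. Of 23 listed receptor genes, 15 were tested, 5 fell, none rose and 10 did not pass, with a median log2 difference of -0.47 against -0.04 over all genes, of which 11.7% were lower and 15.6% higher. Of the 5, 1 reached 1 RPKM in 1 FSC-A High library and in all 3 FSC-A Low libraries, and without FSC-A Low replicate 2 the count was 3. Kit, the stem cell factor receptor used in the sort, stood at 20.9 ± 3.37 RPKM in the 4 FSC-A High libraries and 54.7 ± 6.22 RPKM in the 3 FSC-A Low libraries (-1.35, limma adjusted p = 3.31e-04). Tek, the angiopoietin receptor, stood at 3.85 ± 1.57 RPKM in FSC-A High and 13.3 ± 4.51 RPKM in FSC-A Low (-1.57). Neither gene overlapped between the groups.

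Among 15 genes listed as activators and adaptors of Ras, 9 were tested, 3 fell and 6 did not pass (median -0.51). Over all genes 11.7% were lower. The count of listed genes that fell was 1 without FSC-A High replicate 2 or 3 or FSC-A Low replicate 2. It was also 1 with the length and GC trend removed. Crk stood at 4.45 ± 1.52 RPKM in FSC-A High and 20.2 ± 6.87 RPKM in FSC-A Low (-1.96), the adaptor gene Shc1 at 12.3 ± 1.96 and 23.1 ± 5.31 RPKM (-0.85), and Rasgrp2, a guanine nucleotide exchange factor, at 43.2 ± 4.65 and 67.4 ± 14.1 RPKM (-0.61). Shc1 passed under 15 of 20 alternatives and Rasgrp2 under 11 of 20. In the cascade itself 16 of 20 genes were tested, 2 fell, 1 rose and 13 did not pass (median -0.34), against 11.7% lower and 15.6% higher over all genes. The count that fell was 1 when any FSC-A High replicate or FSC-A Low replicate 3 was left out, and 6 with library total scaling. Lamtor3, a scaffold of Mek and Erk and the gene that rose, stood at 24.3 ± 7.91 RPKM in FSC-A High and 13.5 ± 0.462 RPKM in FSC-A Low (0.76); it held under 7 of 20 alternatives, was lost when any library other than FSC-A High replicate 1 was left out, and had a log2 difference of 0.26 with the length and GC trend removed.

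Of 21 other negative regulators of Ras signalling, 17 were tested, 7 fell, 1 rose and 9 did not pass, with a median log2 difference of -0.62, against 11.7% lower, 15.6% higher and a median of -0.04 over all genes. Of the 7, 2 passed the filter through FSC-A Low alone or with 1 FSC-A High library, and the count was 4 with no filter or with a filter at 5 RPKM. Dok2, an adaptor that recruits a Ras GTPase-activating protein, had 59.1 ± 18.8 RPKM in FSC-A High and 168 ± 29.9 RPKM in FSC-A Low (-1.52), and Rasal3, a Ras GTPase-activating protein of blood cells, at 15.5 ± 3.23 and 44.0 ± 9.13 RPKM (-1.45). Pebp1, which encodes the Raf kinase inhibitor protein, rose to 107 ± 6.78 RPKM in FSC-A High, against 60.2 ± 12.1 RPKM in FSC-A Low (0.83). Of 21 kinases of the p38 and Jnk branches 15 were tested, 4 fell, none rose and 11 did not pass (median -0.35), against 11.7% lower and 15.6% higher over all genes; the count was 2 without FSC-A High replicate 2 or 3 or FSC-A Low replicate 3, and 1 with the length and GC trend removed. Mapk14, which encodes p38 alpha, stood at 22.4 ± 7.06 and 56.7 ± 16.8 RPKM (-1.31), and Map3k11 at 22.1 ± 4.90 and 43.4 ± 6.63 RPKM (-0.96; -0.28, limma adjusted p = 0.342, once the length and GC trend was removed). Mapk9, which encodes a Jnk, stood at 10.5 ± 2.06 and 18.0 ± 1.78 RPKM (-0.73) and held under 12 of 20 alternatives.

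Of 32 genes linked to Erk in transcription, 21 were tested, 5 fell, none rose and 16 did not pass (median -0.46). Over all genes 11.7% were lower and 15.6% higher, with a median of -0.04. Most of the 32 were listed as targets, but Elk1, Elk3, Elk4 and Srf encode factors that Erk signalling acts through. Elk4 was among the 5 that fell. With library total scaling 9 fell, and with no filter 3. Egr1, Ier2 and Junb had the smallest p of the list. Egr1, an immediate early factor, had 12.3, 8.40, 9.38 and 10.4 RPKM in FSC-A High, against 97.4, 61.7 and 88.5 RPKM in FSC-A Low, with a wide gap between the groups. Ier2 had 175, 141, 193 and 177 RPKM in FSC-A High, against 409, 347 and 314 RPKM in FSC-A Low, and Junb 35.2, 31.0, 24.1 and 23.6 against 73.1, 67.8 and 83.2 RPKM. Within FSC-A High, Egr1 spread far less than Dusp5. All calls in these lists are from the limma fit over all genes, and the comparisons share the same 7 libraries as those of the 10 genes.

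**Figure D3:**
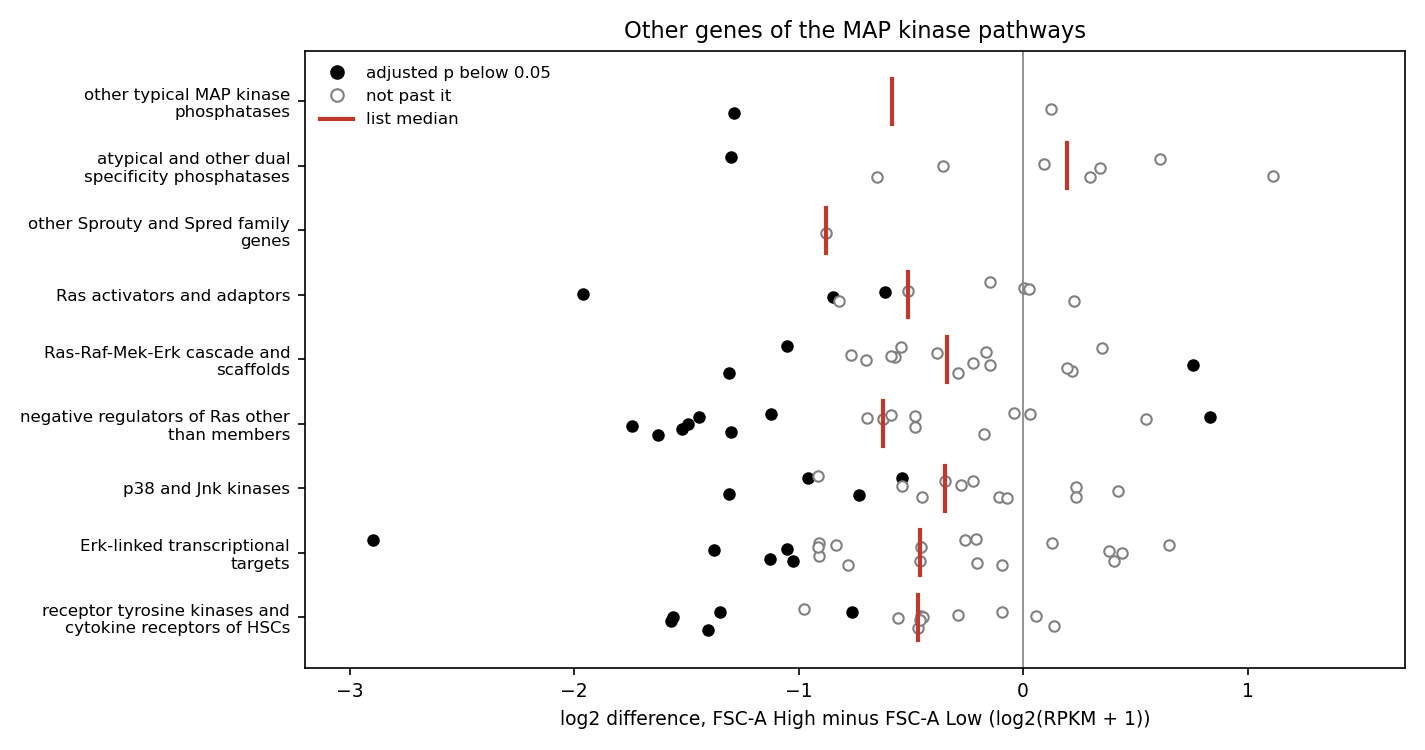
Log2 difference, FSC-A High minus FSC-A Low on log2(RPKM + 1), of every tested gene of 9 pathway lists (horizontal axis; vertical scatter within a list has no meaning); filled points passed a limma adjusted p of 0.05 and the vertical bar is the list median. Filled points lie mostly below 0, with Lamtor3 and Pebp1 the 2 above it.

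The unfractionated HSCs were given in another unit and were not compared with the gated libraries. Their deposited values became whole reads, which were expressed per 1000000 reads of the library (CPM) and, to compare genes, as CPM per kilobase of transcript. On that scale Dusp2 (121 ± 117, SD, n = 4), Dusp1 (49.4 ± 22.2) and Dusp6 (45.2 ± 18.1) were the highest of the 10 genes. Dusp5 (9.58 ± 10.5), Spry1 (4.56 ± 0.563), Spred2 (3.27 ± 3.51), Spry2 (2.63 ± 1.15), Dusp4 (1.58 ± 2.05), Spred1 (1.56 ± 0.554) and Dusp10 (0.392 ± 0.715) followed. Each neighbouring pair in this order overlapped between libraries except Dusp6 and Dusp5, and the SD of Dusp2, Dusp5, Spred2, Dusp4 and Dusp10 was about as large as the mean or larger. Dusp2, Dusp1 and Dusp6 were above the other 7 genes in every unfractionated library.

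Replicate 4, which stood apart, held most of that spread. Dusp2 had 67.8, 127, 114 and 477 CPM in unfractionated replicates 1 to 4, and Dusp5 had 16.1, 6.99, 9.34 and 62.4 CPM. Dusp6 had 87.5, 126, 93.8 and 198 CPM, and Dusp1 84.3, 69.6, 75.4 and 164 CPM. In all 4 genes replicate 4 was the highest. Dusp4, at 2.17, 1.97, 0.515 and 12.7 CPM, Spred2, at 5.08, 4.27, 3.60 and 24.3 CPM, and Spry2, at 2.53, 6.01, 5.07 and 8.31 CPM, were highest there too. Of the 10 genes 7 were thus highest in replicate 4. Of the 8 that reached 10 CPM in some library, 6 were highest there, against 28.8% of the 10078 genes that reached it. Dusp4 and Spred2 reached 10 CPM in replicate 4 only, so the filter itself fixed where they were highest. Nothing is read from the share of the 8.

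The other 3 genes differed. Spry1 was the steadiest of the 10, at 11.5, 13.0, 11.1 and 9.65 CPM, and was lowest in replicate 4. Spred1 had 11.8, 5.58, 12.5 and 7.65 CPM. Dusp10 had 1, 87, 7 and 0 reads, 0.0324, 4.08, 0.257 and 0 CPM, so that nearly all of its reads came from replicate 2. Egr1, Ier2 and Junb were also highest in replicate 4, Egr1 at 23.3, 75.0, 22.1 and 227 CPM, Ier2 at 201, 147, 123 and 343 CPM and Junb at 35.2, 17.5, 18.9 and 103 CPM. Kit had 252, 202, 192 and 537 CPM. Summed endothelial and stromal markers had 72.2, 62.2, 69.8 and 147 CPM, and hepatocyte markers 88.0, 98.8, 92.0 and 15.8 CPM. Most of the first sum was Pecam1, at 67.1, 53.4, 61.3 and 147 CPM. Most of the second was Trf, at 77.8, 75.8, 79.1 and 12.5 CPM. Other markers went against their sums: Cdh5 and Kdr were lowest in replicate 4, and Alb was highest there. The part of these genes and lists in the levels of replicate 4 was not tested.

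**Figure D4:**
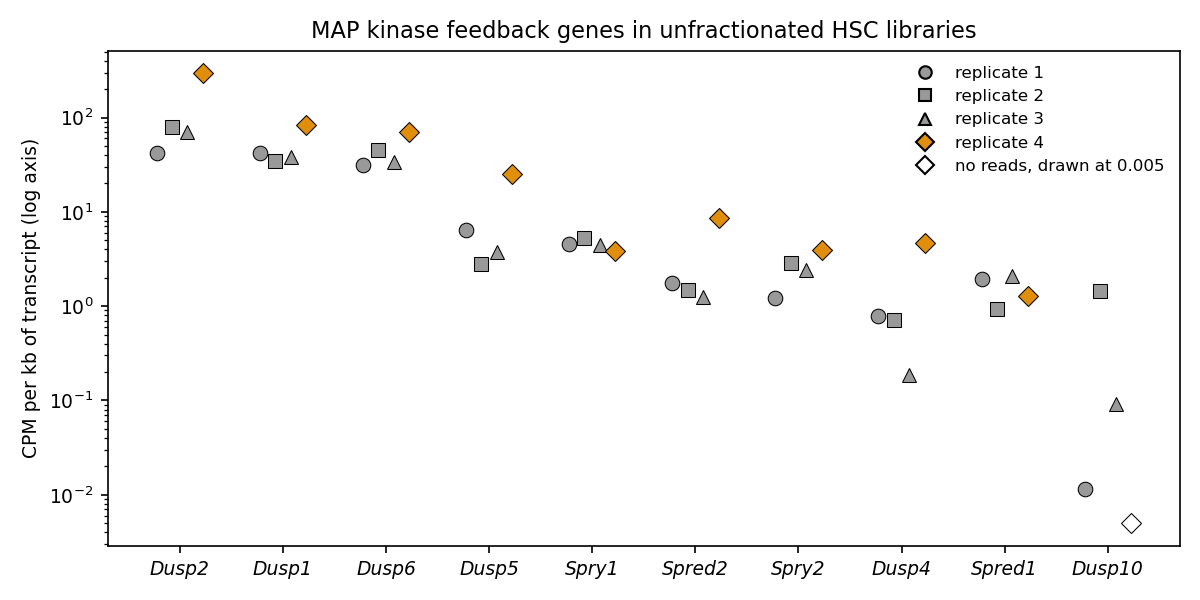
CPM per kilobase of transcript (vertical log axis) of the 10 genes in the 4 unfractionated HSC libraries, by replicate, with replicate 4 in orange; genes run by mean level, and the open diamond is a library with no Dusp10 reads. Replicate 4 is the highest library for Dusp2, Dusp1, Dusp6, Dusp5, Spred2, Spry2 and Dusp4.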

How the data were processed

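The gated files hold 1 value for each of 33984 RefSeq transcripts; the deposited values were taken to be RPKM, scaled by the authors. No label or header names this unit. It was inferred from the values: value times GENCODE M21 length over 1 transcript per gene summed to 67.2 to 72.3% of the 1000000 that RPKM implies, and RPKM and FPKM cannot be told apart. Depth was estimated from the step between low values. Per the submitters' processing notes, STAR, DESeq2 and mm10 were used, without versions or roles. The deposited signal of the unfractionated files is read counts divided by 1 factor per library, so 100% of values became whole reads within 0.01; with 1 group, a count test has no comparison to make. Names came from NCBI's GRCm38.p6 table, for 32263 transcripts by RefSeq identifier and 1328 by symbol, while 393 kept the name in the file.

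Groups were taken from the titles. The gated groups were set against each other by limma 3.58.1 (R 4.3.3; lmFit, then eBayes with its trend option) on log2(RPKM + 1). A gene was tested where 3 or more libraries had 1 RPKM or more (10619 genes), with Benjamini-Hochberg adjustment over all of them and a threshold of 0.05. On simulated data for that comparison the step recovered 58% of changes of log2 size 1 and 100% of size 2 among 200 changed genes, with 11 false calls. The 10 genes and all lists were chosen with earlier results of these data known. All 10 genes are named; from each pathway list, up to 3 called genes with the smallest p are named, or 1 where none was called; some genes that this rule names are not reported here. Alternatives were 3 scalings, pseudocounts of 0.5 and 5, no filter and one at 5 RPKM, sum or mean over transcripts, removal of splines over length and GC content or over level, no intensity trend, a threshold of 0.01, the replicate number as a block, and each library left out. Tables were made with Python 3.11.15, numpy 2.4.6, pandas 2.3.3 and scipy 1.17.1, and plots with matplotlib 3.10.9.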

Additional observations from a re-analysis of the deposited data

Results flagged for a closer look

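In groups of 4 libraries, a library was marked where its gap to the nearest other library was over 0.829 of the group's range (Dixon's 95% critical value). Of 41 groups examined, 8 held such a library, and chance gives about 5%. Of these, 5 were in unfractionated replicate 4: Dusp1 at 164 CPM against 69.6 to 84.3 in the other 3 libraries, Dusp2 at 477 CPM against 67.8 to 127, Dusp4 at 12.7 CPM against 0.515 to 2.17, Dusp5 at 62.4 CPM against 6.99 to 16.1, and Spred2 at 24.3 CPM against 3.60 to 5.08. The genes share that library, so these are not separate observations. Dusp10 stood out in unfractionated replicate 2, at 4.08 CPM against 0 to 0.257. In the gated files Spred1 stood out in FSC-A High replicate 1, at 0.709 RPKM against 0.176 to 0.202, and Dusp22 in FSC-A High replicate 4, at 6.36 RPKM against 3.79 to 3.98.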

How the results depend on the processing

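Dusp2 kept its direction and its call under all 20 alternatives called at 0.05 (log2 difference -1.95 to -1.39). Dusp5 did so under 19 (-2.58 to -1.77), the exception being no filter. The counts of alternatives given per gene, here and above, leave out the threshold of 0.01. At that threshold Dusp2 and Dusp5 passed, and Dusp6 and Spry2 did not. The count of the 10 genes called lower, 3, was 1 with no filter and 2 to 3 with a library left out. The count called higher, 1 (Spry2), was 0 at a threshold of 0.01, with library total scaling, with no filter, with a filter at 5 RPKM (Spry2 was then not tested), after removal of a length and GC trend and with the replicate block, and 0 to 1 with a library left out; other causes were not tested. The log2 difference of Spry1, -0.16, turned positive when a length and GC trend (0.021) or a level trend (0.087) was removed, and ran from -0.54 to 0.20 with a library left out, positive without FSC-A High replicate 1 or FSC-A Low replicate 3. That of Dusp4, 0.16, ran from -0.40 to 0.53, negative without FSC-A High replicate 1 or FSC-A Low replicate 1; the cause was not tested. Over all genes, 1245 lower and 1657 higher became 545 and 1064 at a threshold of 0.01, 2285 and 980 with library total scaling, 781 and 1026 after removal of a length and GC trend, and 868 to 1166 and 1313 to 1639 with a library left out. For the 9 pathway lists, 324 of 378 recomputed counts stayed within 1.5 times. These include counts of 0 that stayed at 0, as most counts of genes that rose did. The share thus overstates how steady the other counts were.

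Replicate numbers pair nothing in the labels, and the deviations of same-numbered libraries correlated at -0.03, 0.06 and 0.00; the replicate block gave 971 lower and 1460 higher genes, with 3 and 0 of the 10. In this fit FSC-A High replicate 4 has no partner. Spred1 and Spred2 had log2 differences of -0.22 and -0.35 with no filter (limma adjusted p = 0.451 and 0.669). Low levels limit what can be seen for Dusp4, Dusp10, Spred1 and Spred2.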
